A study of Mus musculus with 9 samples.

Results

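CTCF occupancy at 6 genes of T cell costimulation and inhibition was described in 3 windows of the mouse genome (mm9). The first, chr1:60700000-61150000, was assigned to Cd28, Ctla4 and Icos, the second, chr1:95850000-96050000, to Pdcd1, and the third, chr19:29350000-29600000, to Cd274 and Pdcd1lg2. Overlapping peaks (1 bp or more) of 8 CTCF CUT&RUN libraries were joined over the genome, and the members were selected on overlap with these windows. This gave 46 of 39574 merged regions, with 29 in the first window, 6 in the second and 11 in the third. Because the peaks themselves made the regions, presence of a peak and its fold are given as a description and carry no test.

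Spleen cells of the naive CD8+ T cell gate were sorted as GFP+ TCRbeta+ CD62Lhi CD44lo-med cells. The 4 groups were Tcf1-/-Lef1-/- cells (DKO) cultured for 72 h in IL-7 plus IL-15, wild-type cells (WT) cultured likewise, DKO cells at 0 h and WT cells at 0 h, with 2 CTCF libraries each. There was also a single IgG library of WT cells at 0 h, which shows background cutting. All groups carried hCD2-Cre, a transgene active in lymphoid cells, and Rosa26-lsl-GFP, a reporter that Cre switches on. Deletion in the DKO used floxed alleles of both genes, so the factors were lost in Cre-expressing cells and not in the whole animal. Age, sex and number of animals are not given in the sources used here, and nothing says that replicates came from separate animals, so their spread may be technical. The peak lists measure DNA binding and cannot check the labelled cell type, or the loss of Tcf1 and Lef1, by expression.

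CTCF is a zinc-finger protein that binds insulators and loop anchors, where it halts cohesin, and so sets which enhancers and promoters share a domain. CD28 is the costimulatory receptor that T cells need beside the T cell receptor for full activation, and CTLA-4 is the inhibitory receptor that competes with it for the ligands CD80 and CD86. ICOS, a receptor of the same family, is induced on activated T cells. PD-1, encoded by Pdcd1, restrains activated and exhausted T cells, and its ligands PD-L1 and PD-L2 are encoded by Cd274 and Pdcd1lg2. In the RefSeq annotation of GRCm38.p6, Cd28, Ctla4 and Icos follow each other as neighbouring coding genes between Raph1 and Pard3b. In the same annotation Cd274 and Pdcd1lg2 are neighbours between Plgrkt and Ric1, and Pdcd1 lies between Neu4 and Fam174a. Gene positions in mm9 were not used here, so each region is tied to a window and not to a promoter, exon or intron.

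The DNA under the peaks could not be read for the same reason, and promoters were taken from RefSeq (GRCm38.p6). Of the 6 genes, Ctla4, Pdcd1, Cd274 and Pdcd1lg2 had an entry. The 250 bases before each gene start were searched on both strands for AGGNGGC, a core of the CTCF motif. It was present before Pdcd1 and not in the windows before the other 3 genes, and 25.0% of 32851 promoters of the same length held it. The Pdcd1 promoter, chr1:94052554-94052803 on the minus strand of GRCm38.p6, is shown because it holds the match, in capitals, which starts at position -80 from the gene start. No peak was placed on it, since these coordinates are of another build than the peaks.
Pdcd1: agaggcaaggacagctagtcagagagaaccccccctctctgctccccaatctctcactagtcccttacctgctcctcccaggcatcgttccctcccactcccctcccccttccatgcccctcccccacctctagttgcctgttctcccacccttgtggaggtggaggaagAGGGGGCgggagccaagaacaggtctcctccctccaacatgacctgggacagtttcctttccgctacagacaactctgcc

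The CTCF lists of naive cells were longer than those of cultured cells. They held 10339 and 16234 peaks in DKO and 17335 and 26630 in WT cells at 72 h, and 30309 and 31394 in DKO and 32587 and 30968 in WT at 0 h. The authors' fold of a peak is its enrichment over local background, and no CTCF list held a peak of fold under 4. The median fold per list was 7.03 and 8.05 in DKO and 7.89 and 9.06 in WT cells at 72 h, and 10.4 and 10.3 in DKO and 10.1 and 9.78 in WT at 0 h. Fold values are set side by side without normalization between lists, read depth is not given in the sources used here, and an absent peak says only that none was listed. In bulk cells, binding in fewer cells and weaker binding in each cannot be told apart. None of the 5 IgG peaks lay in the windows.

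Fewer regions of the windows were found in DKO than in WT cells at both times. With a peak required in both libraries of a group, 8 of the 46 regions were found in DKO and 13 in WT cells at 72 h, and 22 in DKO and 32 in WT at 0 h. The 22 regions found in both DKO libraries at 0 h were 47.8% of the members, against 68.7% of all merged regions. With a peak in either library, 11 regions were found in DKO and 26 in WT cells at 72 h, and 30 in DKO and 41 in WT at 0 h. Over all 39574 merged regions these counts were 16062 in DKO and 26287 in WT at 72 h, and 33810 and 34343 at 0 h. In WT at 0 h the shares with both libraries were 69.6% of the members and 71.7% of all regions. At 72 h they were 17.4% and 25.0% in DKO, and 28.3% and 42.2% in WT, members first. Single libraries held 17.4 and 23.9% of the members in DKO and 28.3 and 56.5% in WT cells at 72 h, and 54.3 and 58.7% in DKO and 76.1 and 82.6% in WT at 0 h. The WT libraries at 0 h were thus both above the DKO libraries at 0 h, while at 72 h WT replicate 1 lay closer to the DKO libraries than to WT replicate 2. At 72 h the shares rose with list length, but at 0 h they did not follow it. WT replicate 2 at 0 h had 30968 peaks and 82.6% of the members, against 31394 peaks and 58.7% in DKO replicate 2. When the 4 lists of 0 h were reduced to the same 30309 peaks, a cut chosen after seeing the data, 22 members were found in DKO and 30 in WT. DKO replicate 1 at 0 h held 30309 peaks and so lost none. Whether list length sets the shares was not tested.

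**Figure D1:**
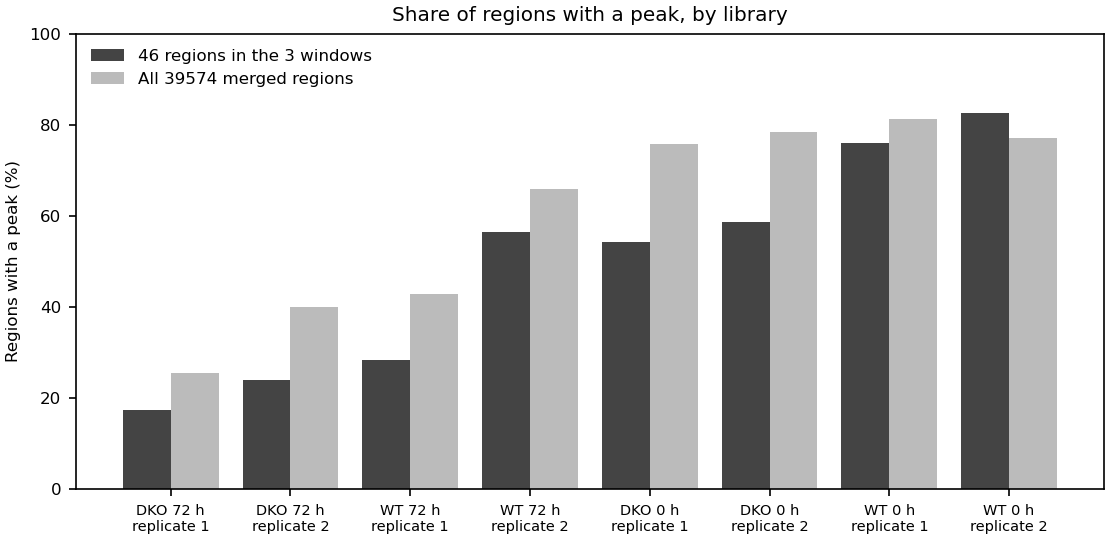
Percent of regions with a peak in each of the 8 CTCF libraries, for the 46 regions of the 3 windows (dark bars) and for all 39574 merged regions (light bars). The dark bar is the lower one in 7 libraries, and the higher one in WT 0 h replicate 2, at 82.6% against 77.1%.

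The members ranged from regions of every library to regions of 1. A peak in all 8 libraries was found at 8 regions (17.4%), against 24.2% of all merged regions, and a peak in 1 library at 12 (26.1%), against 14.7%. Over the 8 constant regions the mean fold of a region had a median of 19.2, against 5.21 over the 12 regions of 1 library. Constant regions were also wider, with a median merged width of 1285 bp against 273 bp. A merged width runs over all peaks of a region, so joining peaks of more libraries can only widen it. Rank percentiles, the share of peaks of the same list with a −log10 p no higher, had a median of 90.2 over the constant regions and 10.2 over the regions of 1 library.

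**Figure D2:**
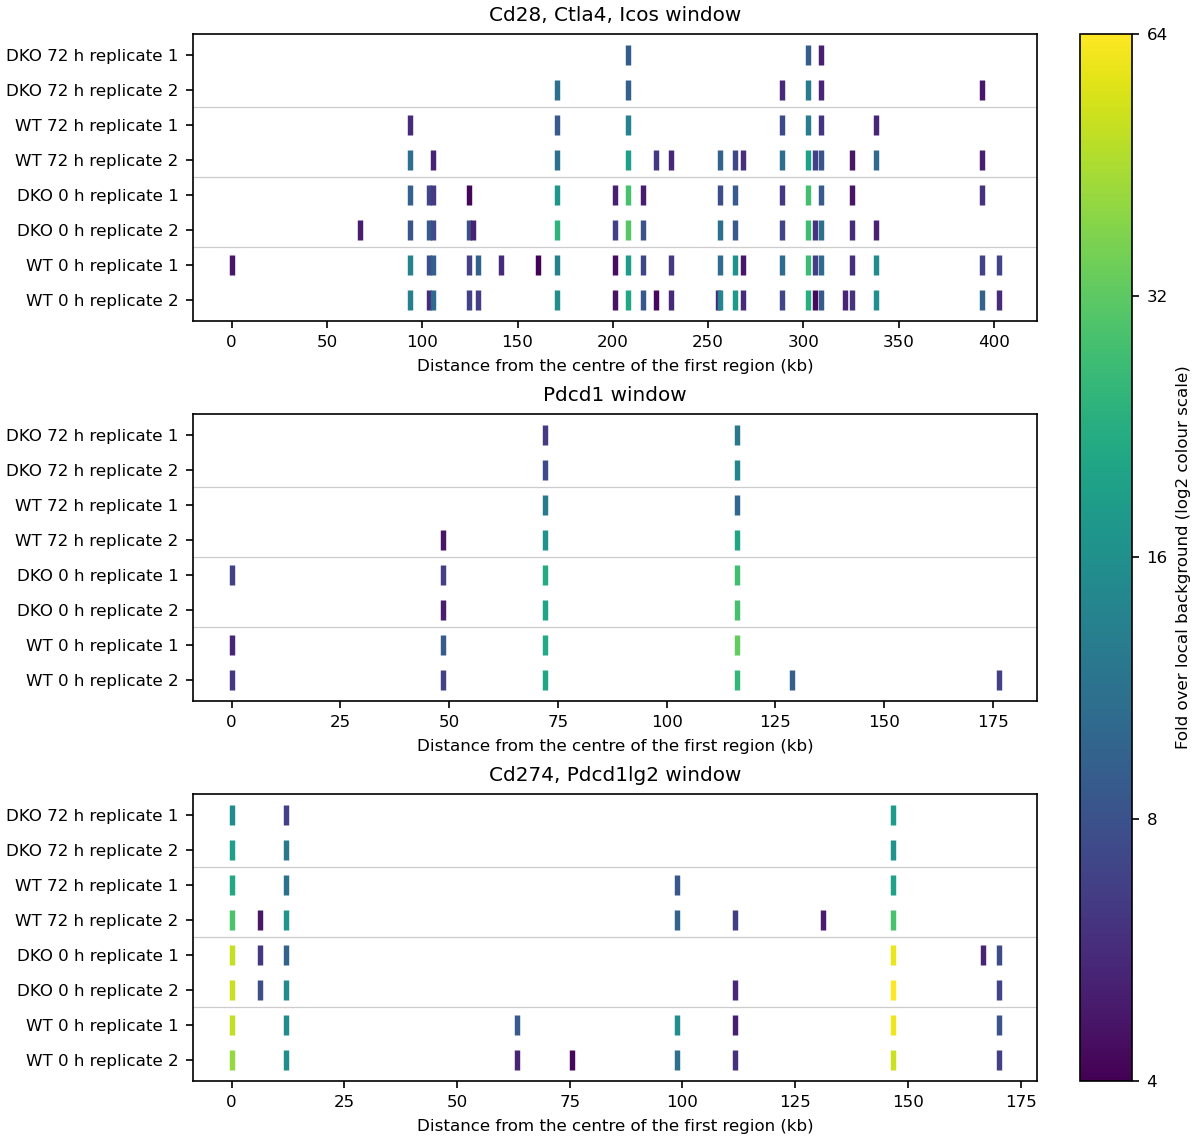
Peaks of each CTCF library (rows) along the 3 windows, with the distance in kb from the centre of the first region on the x axis and the fold as colour on a log scale (values over 64 have the top colour). Columns that run through all 8 rows are the 8 constant regions, and most other marks are dark, at folds under 16.

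The genotypes were set against each other at each time, which asks whether loss of Tcf1 and Lef1 goes with other CTCF peaks. A region was called DKO-only or WT-only when both libraries of that genotype had a peak and the other genotype had none. At 72 h, 0 members were DKO-only (0.0303% of all regions) and 3 were WT-only, or 6.52% of members against 6.37% of all regions. At 0 h, 1 member was DKO-only, 2.17% against 2.73% of all regions, and 6 were WT-only, 13.0% against 4.88%. Over both times, 0 members were found in all 4 DKO and no WT library (0.0126% of all regions), and 1 in all 4 WT and no DKO library (0.498%). The WT-only share at 72 h is near the background. The WT-only share at 0 h is above it, and rests on 6 regions of WT folds from 4.69 to 15.6. With every list reduced to 10339 peaks, 1 region was WT-only at 72 h and 2 at 0 h, and without WT 72 h replicate 1, 15 were WT-only at 72 h, 3 of them at both times. The count was 5 without DKO 72 h replicate 2, and at 0 h it was 12 without WT 0 h replicate 1. Leaving out DKO 0 h replicate 1 gave 3 DKO-only regions at 0 h. Leaving out DKO 0 h replicate 2 gave 2 of them, and 2 WT-only regions of both times. A library left out drops a condition, so such counts could only stay or rise. With 2 libraries against 2 an exact test cannot give a p below 0.333.

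Time was compared within each genotype, which asks how CTCF peaks of naive cells compare with those of cytokine-treated cells. A region was 72 h-only or 0 h-only when it had a peak in both libraries of that time but in none of the other. In DKO cells, 0 members were 72 h-only (0.116% of all regions) and 12 were 0 h-only, or 26.1% of members against 29.1% of all regions. In WT cells, 0 were 72 h-only (0.576%) and 9 were 0 h-only, or 19.6% against 13.0%. With every list reduced to 10339 peaks 0 members were 0 h-only in either genotype, and 1 was 72 h-only in each. The WT count of 0 h-only members was 19 when replicate 2 of WT at 72 h was left out, and 14 when replicate 1 of WT at 0 h was. With replicate 1 of WT at 72 h left out, 2 members were 72 h-only in WT. Here too, counts with a library left out could only stay or rise. Of the 21 members with a peak in all 4 libraries at 0 h, 8 and 10 had one in the DKO libraries at 72 h and 11 and 16 in the WT libraries. These are 38.1% and 47.6% in DKO and 52.4% and 76.2% in WT, against 40.9% and 62.7% in DKO and 65.2% and 86.9% in WT over all 24438 such regions. 5 of the 21 had no peak in any library at 72 h, against 2973 of the 24438. Of these 5, 4 lay in the Cd28, Ctla4 and Icos window and 1 in the Cd274 and Pdcd1lg2 window.

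In the window of Cd28, Ctla4 and Icos, the costimulatory receptors and their inhibitory counterpart, regions stood at 6.44 per 100 kb, against 1.29 over chromosome 1 from its first to its last region. Of the 29 regions, 3 were found in both libraries of DKO and 7 of WT cells at 72 h, and 14 of DKO and 21 of WT at 0 h. A peak in all 8 libraries was present at 3. The strongest by rank was chr1:61011492-61012318, with a fold of 9.05 and 12.5 in DKO and 12.8 and 19.3 in WT cells at 72 h, and 28.0 and 26.9 in DKO and 26.4 and 22.8 in WT at 0 h. Its rank percentile stayed between 87.9 and 94.3 in all 8 lists, and the 8 summits lay within 47 bp. So the DKO folds lay below the WT folds at 72 h and above them at 0 h, without overlap at either time.

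A second constant region, chr1:60917221-60918170, showed the same order with a wider gap. It had a fold of 8.86 and 9.28 in DKO and 13.6 and 18.7 in WT cells at 72 h, and 28.6 and 30.8 in DKO and 18.3 and 20.9 in WT at 0 h. Its rank percentiles were 65.6 and 60.1 in DKO and 83.2 and 82.3 in WT cells at 72 h. At 0 h they were 85.5 and 86.6 in DKO and 73.1 and 77.3 in WT. The genotypes thus had the same order by rank as by fold. Ranks are places in lists of different lengths, so they cannot by themselves establish a change. The third, chr1:61017900-61019382, was weak and broad, with a fold of 5.13 and 5.31 in DKO and 6.13 and 8.32 in WT cells at 72 h, and 8.74 and 11.1 in DKO and 10.3 and 8.65 in WT at 0 h. The centres of the third and the strongest region lay 309.2 kb and 302.4 kb from that of the window's first region. The third region's summits spread over 990 bp, and several libraries listed a pair of peaks there.

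The regions at the start of this window were mostly of naive cells. chr1:60812342-60813459 had a fold of 7.23 and 8.79 in DKO and 7.96 and 5.60 in WT at 0 h and no peak at 72 h, with rank percentiles of 58.6 and 63.4 in DKO and 60.7 and 54.6 in WT. It was the highest-ranked of the members found in all 4 libraries at 0 h and none at 72 h. The neighbouring chr1:60814908-60815696 had no peak in DKO and a fold of 5.23 in replicate 2 of WT at 72 h, and 6.46 and 7.50 in DKO and 9.13 and 10.3 in WT at 0 h. The DKO folds there lay below the WT folds at 0 h, whereas at chr1:60812342-60813459 they overlapped. How often such an order occurs over the genome was counted only for regions found in all 8 libraries. The orders given for other regions therefore have no background beside them and were not tested.

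3 further regions of this window had a peak in all 4 libraries at 0 h and none at 72 h. chr1:60833639-60834691 had a fold of 4.16 and 7.97 in DKO and 6.89 and 6.88 in WT. chr1:60910149-60910702 had 5.09 and 6.86 in DKO and 4.41 and 4.58 in WT, so that both DKO values were the higher ones. chr1:60925063-60925645 had 4.93 and 8.17 in DKO and 7.06 and 8.48 in WT. All 3 ranked low to middling, with percentiles from 6.68 to 43.7.

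Another 3 were found in all 4 libraries at 0 h and, at 72 h, in WT replicate 2 alone. chr1:60965355-60966232 had a fold of 9.48 in that library, and 7.51 and 10.9 in DKO and 10.6 and 14.4 in WT at 0 h. chr1:60973139-60973967 had 7.27, and 8.80 and 8.70 in DKO and 16.2 and 17.9 in WT. chr1:61034418-61035255 had 4.69, and 4.64 and 5.59 in DKO and 5.83 and 5.94 in WT. The DKO folds at 0 h lay below the WT folds at the last 2 of these, by the widest margin at chr1:60973139-60973967, again without a share over the genome. WT replicate 2 had the longest list at 72 h, and a single library is no replicate of a difference.

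2 regions of this window were WT-only at 72 h. chr1:61047095-61047893 had no peak in DKO and a fold of 5.35 and 10.2 in WT cells at 72 h, and 5.17 in replicate 2 of DKO against 15.1 and 15.8 in WT at 0 h. Its rank percentile was 12.2 in the DKO list that held it, against 64.9 and 69.1 in the WT lists at 0 h, so all 4 WT libraries but 1 DKO library listed it. chr1:60802640-60803814 had no peak in DKO and a fold of 5.56 and 10.8 in WT cells at 72 h, and 9.36 and 8.25 in DKO and 13.8 and 13.3 in WT at 0 h. The DKO folds lay below the WT folds there at 0 h, and at 72 h there was no DKO fold to compare.

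4 regions of the window were WT-only at 0 h, with no peak in either DKO group and WT folds at 0 h from 4.69 to 9.27. chr1:60838392-60838883 had a fold of 9.27 and 6.62 and chr1:61111829-61112387 of 7.07 and 5.60 in WT, with no other peak in any library. chr1:60939570-60940397 had 6.38 and 5.54 in WT at 0 h and 5.43 in replicate 2 of WT at 72 h. chr1:60977329-60977748 had 4.69 and 5.54 at 0 h and 5.80 in replicate 2 at 72 h. All 4 were thus absent from DKO, and 2 of them were also in the longest list of 72 h.

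The other 12 regions of this window had no such pattern. 7 of them had a peak in 1 library, always at 0 h, with folds from 4.05 to 5.55. The lowest fold of the window was that of chr1:60870180-60870511, 4.05 in replicate 1 of WT at 0 h. The remaining 5 regions had a peak in 2 to 7 libraries. Of these, chr1:60879608-60880451 was missing from DKO replicate 1 at 72 h alone and reached 17.1 and 24.4 in DKO and 13.4 and 15.5 in WT at 0 h. Between regions found in both libraries of a group, the largest gap in this window was 93.3 kb in DKO and 79.6 kb in WT cells at 72 h, and 44.9 kb in DKO and 55.0 kb in WT at 0 h.

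In the window of Pdcd1, the PD-1 gene, 2 of 6 regions were constant. The other 4 had their peaks mainly at 0 h, with lower folds there than the constant regions. Regions stood at 3.0 per 100 kb, and 2 were found in both libraries of DKO and 2 of WT at 72 h, and 3 of DKO and 4 of WT at 0 h. chr1:95975394-95976480 had a fold of 12.0 and 14.2 in DKO and 9.96 and 20.4 in WT cells at 72 h, and 27.6 and 28.3 in DKO and 32.9 and 25.0 in WT at 0 h. The DKO and WT values overlapped at both times, while every value at 72 h lay below every value at 0 h. chr1:95930826-95932505 had 6.46 and 7.45 in DKO and 12.4 and 16.2 in WT cells at 72 h, and 21.8 and 19.9 in DKO and 21.4 and 20.5 in WT at 0 h. At 72 h the DKO folds lay below the WT folds, and at 0 h the genotypes overlapped. Its rank percentiles were 68.5 and 68.5 in DKO and 95.5 and 94.2 in WT cells at 72 h, and 95.6 and 93.1 in DKO and 93.2 and 94.3 in WT at 0 h, again as places in lists of different lengths.

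No region of the Pdcd1 window was found in both libraries of 1 genotype and neither of the other. chr1:95907925-95908647 was found at 72 h only in WT replicate 2, at 4.70, and at 0 h had 6.65 and 4.94 in DKO and 8.75 and 6.84 in WT. chr1:95859512-95859872, the region of lowest mean fold in the window, had 6.81 in replicate 1 of DKO and 5.37 and 6.19 in WT at 0 h, and no peak at 72 h. chr1:95988258-95988562 and chr1:96035977-96036217 had a single peak each, of 9.19 and 6.84, in WT replicate 2 at 0 h. The window stood at the edge of a long stretch without CTCF peaks, since the next region after its end was 1502.2 kb away.

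In the window of the ligand genes Cd274 and Pdcd1lg2, the strongest regions of all 46 were constant. Regions stood at 4.4 per 100 kb, against 2.201 over chromosome 19, and 3 of 11 were found in both libraries of DKO and 4 of WT at 72 h, and 5 of DKO and 7 of WT at 0 h. chr19:29575586-29577361 had a fold of 18.2 and 16.8 in DKO and 19.7 and 28.9 in WT cells at 72 h, and 59.3 and 65.4 in DKO and 60.3 and 51.2 in WT at 0 h, and its mean of 40.0 was the highest of the window. chr19:29429032-29430774 had 15.0 and 18.8 in DKO and 21.2 and 29.1 in WT cells at 72 h, and 50.2 and 51.0 in DKO and 49.6 and 41.4 in WT at 0 h. Both had lower folds in DKO than in WT at 72 h. At 0 h the DKO folds lay above the WT folds at chr19:29429032-29430774 and overlapped them at chr19:29575586-29577361. Their rank percentiles over the 8 lists were 94.7 to 99.5 at chr19:29575586-29577361 and 98.6 to 99.5 at chr19:29429032-29430774, so the lower folds at 72 h came with no low rank.

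The third constant region of this window, chr19:29441530-29442211, did not have the lower folds at 72 h that marked the others. It had a fold of 6.74 and 12.1 in DKO and 11.2 and 17.0 in WT cells at 72 h, and 9.51 and 15.1 in DKO and 15.0 and 15.3 in WT at 0 h. Within each genotype the values at 72 h and 0 h overlapped. Its rank percentiles were 41.0 and 77.6 in DKO and 71.9 and 81.5 in WT cells at 72 h, and 39.2 and 62.0 in DKO and 63.3 and 66.1 in WT at 0 h. When every list was reduced to its best 10339 peaks by p, the length of the shortest list, it had a peak in all 4 libraries at 72 h and in none of the 4 at 0 h. The cut was unequal, since the shortest list, DKO replicate 1 at 72 h, lost no peak and the 0 h lists lost most of theirs. The peak at percentile 41.0 in that shortest list was thus kept in any case.

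1 region of this window was the WT-only one of both times. chr19:29528186-29529154 had no peak in any DKO library, whereas the WT folds were 8.50 and 9.41 at 72 h and 15.6 and 11.1 at 0 h. It was not a weak peak, with rank percentiles of 79.2 and 77.2 at 72 h and 87.8 and 80.4 at 0 h. Its −log10 q was 19.97 and 29.55 at 72 h and 66.3 and 45.5 at 0 h. In lists of equal length all 4 WT libraries still had the peak. Shortening a list only removes peaks, so the absence from DKO there was fixed in advance. The largest gap between regions found in both libraries of a group was 133.4 kb in DKO and 86.0 kb in WT cells at 72 h. At 0 h it was 133.4 kb in DKO and 50.8 kb in WT. The WT gap at 0 h ended at chr19:29492994-29493505, another region with no peak in DKO, so the contrast at 0 h does not rest on chr19:29528186-29529154 alone. The WT gap at 72 h ended at chr19:29528186-29529154, so the contrast at 72 h does rest on that region.

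The ligand window also held the single DKO-only region of 0 h. chr19:29436061-29436558 had a fold of 6.30 and 7.74 in DKO and no peak in WT at 0 h, and 4.75 in replicate 2 of WT at 72 h. Its rank percentiles were 19.04 and 26.6 in the DKO lists at 0 h, so these peaks were weak. chr19:29492994-29493505 was WT-only at 0 h, at 8.74 and 5.26, and had no other peak. chr19:29599761-29600458, which straddles the end of the window, had 7.51 and 7.09 in DKO and 8.07 and 6.84 in WT at 0 h and no peak at 72 h. The lowest value of the window was at chr19:29505135-29505594, 4.24 in replicate 2 of WT at 0 h. chr19:29541394-29541884 was found in 4 libraries at folds of up to 6.54, and the last 2 regions in 1 library each, at 4.95 and 5.26.

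**Figure D3:**
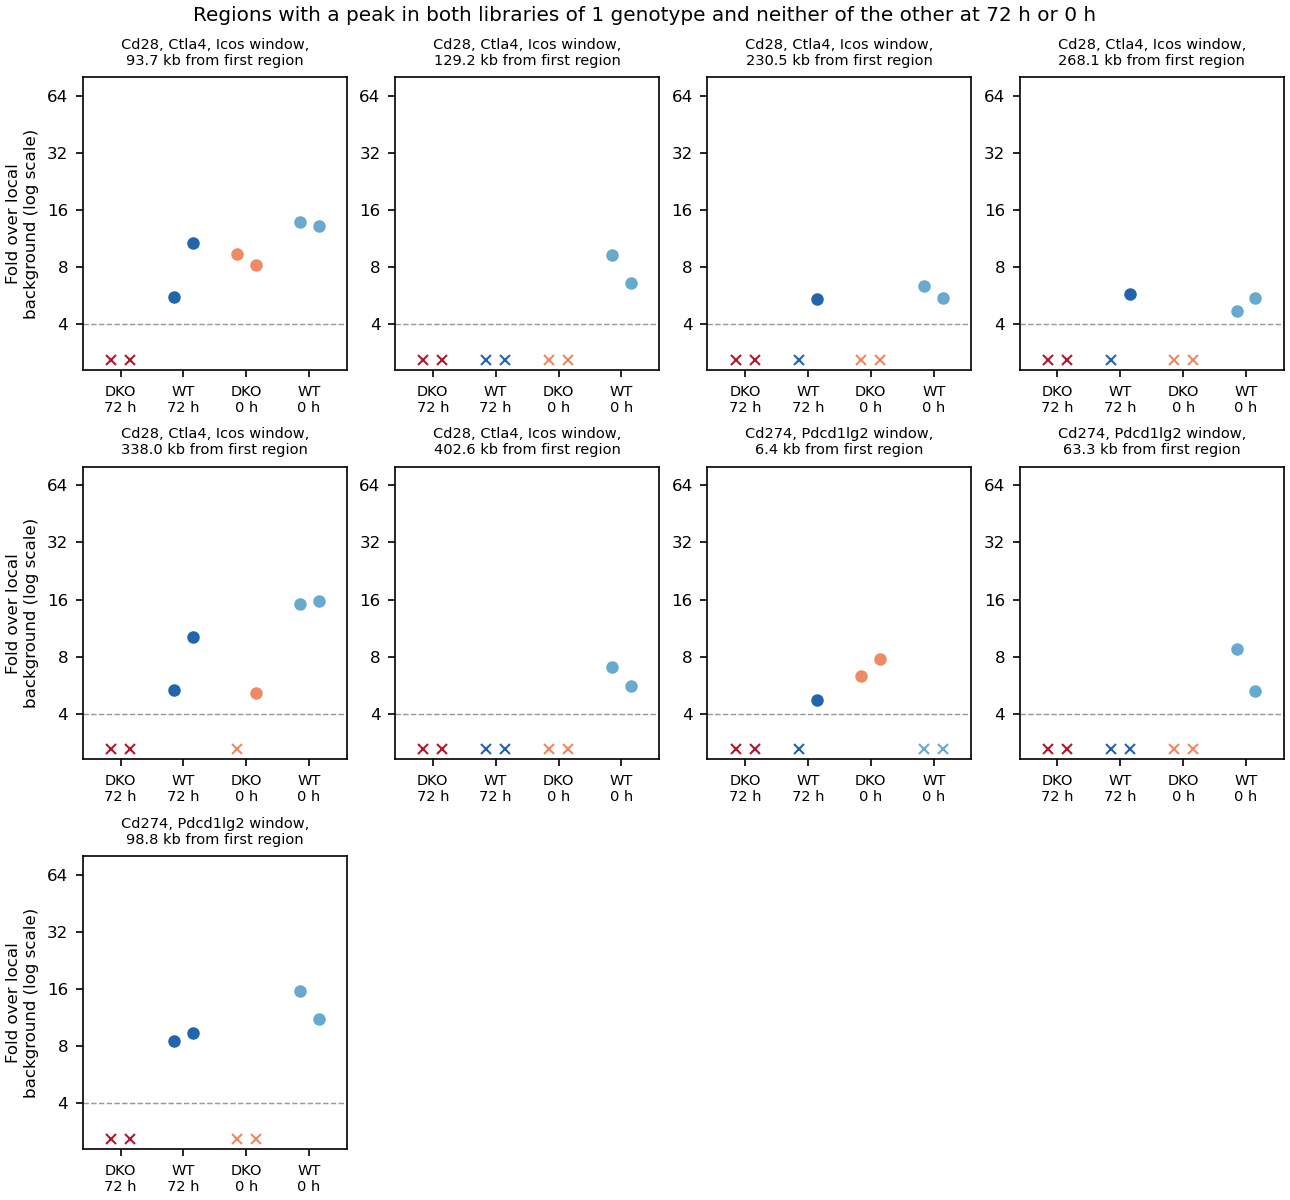
Fold over local background (log scale) in each library for the 9 regions with a peak in both libraries of 1 genotype and neither of the other at 72 h or 0 h. Circles are single libraries, crosses below the dashed line at 4 mark libraries with no peak, and in the last panel (Cd274, Pdcd1lg2 window, 98.8 kb from the first region) all 4 DKO libraries have crosses while WT values run from 8.50 to 15.6.

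Over the 8 constant regions, the order of the folds stands beside its share over the genome. Both DKO folds lay below both WT folds at 72 h at 6 of 8, as at 50.6% of the 9591 regions found in all 8 libraries, and above them at 0 of 8 (0.146%). Among the 6 was chr1:61017900-61019382, whose summits spread over 990 bp, so the folds compared there may belong to different peaks. At 0 h both DKO folds lay above both WT folds at 3 of 8 (33.2%) and below them at 0 of 8 (10.6%). The same 3 regions had DKO below WT at 72 h and above WT at 0 h, an order seen at 15.8% of the 9591. Both folds at 72 h lay below both at 0 h in DKO at 7 of 8 (98.0%) and in WT at 6 of 8 (81.0%). The region without this order in DKO was chr19:29441530-29442211, and in WT it and chr1:60917221-60918170 lacked it.

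**Figure D4:**
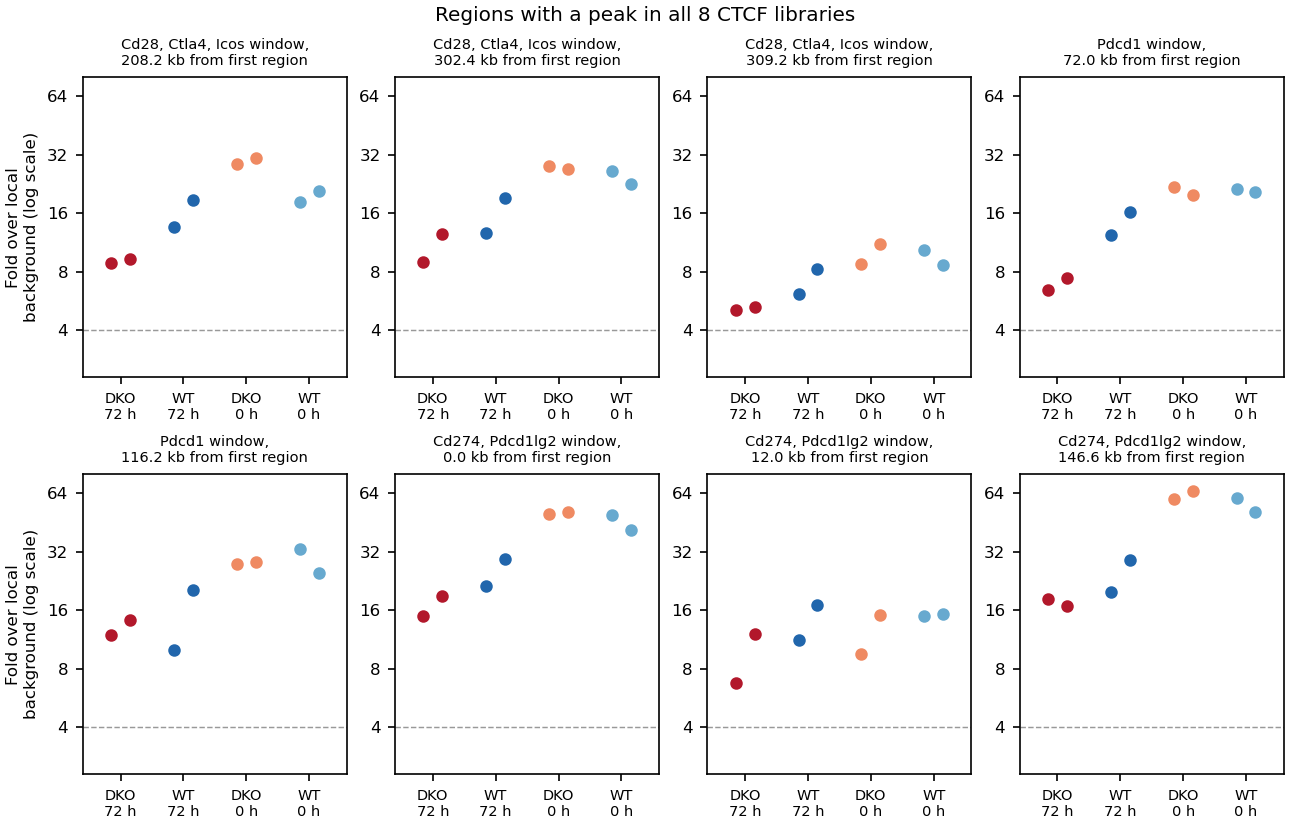
Fold over local background (log scale) in each library for the 8 regions with a peak in all 8 libraries. Each circle is 1 library and the dashed line is at 4, and the groups at 72 h sit below those at 0 h in most panels but overlap them at 12.0 kb in the Cd274, Pdcd1lg2 window, where folds run from 6.74 to 17.0.

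The window borders were fixed by position. The nearest region outside the Cd28, Ctla4 and Icos window was chr1:61158192-61158989, 8.2 kb after its end, with a peak in 7 libraries and folds from 12.0 to 35.1, so a strong region was just missed. Outside the Cd274 and Pdcd1lg2 window the nearest was chr19:29346852-29347385, 2.6 kb before its start, with folds from 6.19 to 7.09 in 3 libraries. Before the Pdcd1 window, the nearest region was 62.0 kb away.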

How the data were processed

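CTCF binding was measured by CUT&RUN, in which an antibody directs a nuclease to the bound protein and the released DNA is sequenced. Libraries were amplified with 18 to 21 PCR cycles, per the labels' protocols. The submitters' processing notes name FastQC, Bowtie2 2.2.5, MACS2 2.1.1 and the build mm9. The control used in peak calling and its thresholds are not given in the sources used here. Peaks were deposited per library. Each deposited peak has a fold (ratio) over local background, a −log10 p and a −log10 q, a score that was not used, and a summit position.

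Peaks of the 8 CTCF lists were merged where they shared at least 1 bp with pandas 2.3.3 (Python 3.11.15), and a region's fold in a library is that of its strongest peak there. A region was found in a group when both libraries had a peak, and 1-group-only when neither library of the other group had one. The merging was tested on simulated data. The members and lists were chosen with earlier results of these data known, no test was run, and counts stand beside the same share over all regions. Named regions are those found in all 8 libraries, those found in 1 group only and the highest and lowest of each window; others named were chosen after their values were seen. Alternatives were lists of equal length, a −log10 q of at least 5, summits within 100 bp, a 50% overlap, a peak in at least 1 library and each replicate left out.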

Additional observations from a re-analysis of the deposited data

Results flagged for a closer look

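At 3 constant regions the 2 DKO folds lay below the 2 WT folds at 72 h and above them at 0 h, so that the genotypes' order turned round between the times. The difference between the log2 ratios of mean folds (DKO over WT), 72 h minus 0 h, was not tested. At chr1:60917221-60918170 it was -1.43, from a log2 ratio of -0.83 at 72 h and 0.60 at 0 h. Mean folds there were 9.07 in DKO and 16.2 in WT cells at 72 h, and 29.7 in DKO and 19.6 in WT at 0 h. At chr1:61011492-61012318 it was -0.73, with -0.57 at 72 h and 0.16 at 0 h. At chr19:29429032-29430774 it was -0.72, with -0.57 at 72 h and 0.15 at 0 h. The same order was present at 15.8% of the 9591 regions found in all 8 libraries. Folds are not normalized between lists, and the median fold of the lists overlapped between the genotypes at 72 h and was higher in DKO at 0 h, at 7.03 and 8.05 in DKO and 7.89 and 9.06 in WT cells at 72 h, and 10.4 and 10.3 in DKO and 10.1 and 9.78 in WT at 0 h.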

How the results depend on the processing

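Counts of regions in a group only depended on how many peaks a list held. With every list reduced to 10339 peaks, 13 of the 46 regions remained in the windows. The regions found only at 0 h numbered 0 in DKO and 0 in WT, the WT-only regions 1 at 72 h and 2 at 0 h, and the DKO-only regions of 0 h 0. Regions found only at 72 h numbered 1 in DKO and 1 in WT. The WT-only count of both times was 1 as before, and 6 regions were found in all 8. With a −log10 q of at least 5 the DKO-only count at 0 h was 2, and 7 regions were found in all 8 libraries. With summits merged within 100 bp, there was 1 region found only at 72 h in DKO, 1 in WT and 1 DKO-only at 72 h. That merging left 6 regions found in all 8 libraries. Requiring 1 library per group in place of both gave 19 found only at 0 h in DKO and 17 in WT, 15 WT-only at 72 h, 15 WT-only at 0 h, 4 WT-only at both times, 4 DKO-only at 0 h and 2 found only at 72 h in WT. The 50% overlap kept all 12 counts within 1.5 times. Cutting the 0 h lists to 30309 peaks, an alternative chosen after seeing the data, gave 1 DKO-only and 5 WT-only regions. Leaving out 1 library moved WT-only at 72 h over 3 to 15 (15 without WT 72 h replicate 1, with 5 as the count without DKO 72 h replicate 2) and WT-only at 0 h over 6 to 12 (12 without WT 0 h replicate 1). It moved WT-only at both times over 1 to 3 (3 without WT 72 h replicate 1) and regions found only at 0 h in WT over 9 to 19 (19 without WT 72 h replicate 2). Regions found only at 72 h in WT ran over 0 to 2, and DKO-only at 0 h over 1 to 3 (3 without DKO 0 h replicate 1). Leaving out a library drops a condition, so these counts could only stay or rise, and the lower ends were fixed in advance. Shares over all regions were not taken for these settings. No paired analysis was made, since no result came from a test. Read depth is unknown, so an absent peak cannot be set against a detection limit.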
